A study of Mus musculus with 74 samples.

Results

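The genes described are 37 genes of FGF and ERK signalling in mouse embryonic stem (ES) cells. They were taken by name from a list of FGF ligands (7), FGF receptors (4), feedback inhibitors (10), ERK targets (7) and members of the cascade between receptor and ERK (9), out of 37620 genes in the count tables. The study varied Nanog, a transcription factor of pluripotency, and LIF, the cytokine that keeps ES cells undifferentiated, and measured mRNA by RNA-seq. SunTag cells were E14Tg2a ES cells with a CRISPR activator that doxycycline (Dox, 1 µg/mL) switches on and that guide RNAs direct to chosen promoters. Nanog cells carried a guide to the Nanog promoter and gave 11 libraries. Nanog/Otx2 cells, made from them by adding a guide to the promoter of Otx2, a factor of the primed epiblast, gave 15. Each was grown for 3 days with LIF (10 ng/mL) or without it, and with or without Dox, so that the cells without Dox carried the activator and the guides too. The Nanog cells without Dox had the libraries C1-1, C2-1 and C2-2 with LIF and C1-1, C1-2 and C2-1 without it. With Dox they had C1-1 and C2-1 with LIF, and C1-1, a second library of that name (C1-1b) and C2-2 without it. By their titles, the Nanog/Otx2 cells had C1ON3-1, C1ON3-2, C2ON3-1 and C2ON3-2 in each condition. The exception was C2ON3-2, which was not among those with LIF and without Dox. C1 and C2 are SunTag clones, and each line is 1 clone per parental clone. 44iN cells lack endogenous Nanog and carry a Dox-inducible Nanog transgene. They were grown in LIF with Dox (2 libraries), 24 h after its removal (2) or long-term without it under G418 selection (LT, 2). Wild-type Tg2a cells in serum (FCS) and LIF gave 3 libraries. Values of a group are given in the order of the libraries above.

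FGF ligands bind receptor tyrosine kinases at the cell surface, and adaptors then pass the signal to RAS, the RAF and MEK kinases and ERK. ERK turns on transcription factors and also genes whose products shut the pathway down again, so that mRNA of these feedback genes is widely used as a readout of signalling. In mouse ES cells Fgf4 is the main autocrine ligand, and its signal through ERK prepares the cells to leave the naive state, whereas LIF holds them there.

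The libraries held between 6107512 and 92244655 counts (median 29298745), of which the 37 genes took 0.178% to 0.268%. Levels are given as normalised counts, the counts divided by the size factor of the library. Nanog itself checked the labels, with 18320 to 29487 normalised counts in SunTag cells with LIF and no Dox, 40628 to 93813 with LIF and Dox, 1974 to 8484 with neither and 31697 to 55641 with Dox alone. In 44iN cells it had 13366 to 18394 with Dox, 706 to 739 after 24 h without it and 228 to 276 long-term. Socs3, a direct target of LIF signalling, was between 1696 and 4719 normalised counts in SunTag cells with LIF and between 24.4 and 84.3 without. The 8 markers of naive ES cells summed to between 62037 and 76909 normalised counts in SunTag cells with LIF and no Dox and to between 2099 and 3754 without either, and the 7 markers of the primed epiblast, Fgf5 among them, to between 7290 and 16141 and between 83802 and 123545. In bulk RNA, a change in the share of cells that express a gene and a change in RNA per cell cannot be told apart, and this holds for each gene below. Nothing in the labels says that the replicates were independent cultures, so p-values measure the spread between these libraries.

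Promoter sequence was at hand for 27 of the 37 genes (RefSeq, GRCm38.p6), and the 250 bases before the start were searched on both strands for motifs of factors that ERK signalling acts on. The ETS motif CCGGAAGT was in 0 of the 27 promoters and in 3.23% of all promoters of that length, the AP-1 motif TGANTCA in 1 and in 7.82%, the CREB motif TGACGTCA in 3 and in 1.77%, and the CArG box, bound by SRF, in 1 and in 1.62%. The motifs do not overlap each other in these windows. The windows with a match are shown in the sense of the gene, with the motif in capitals, whatever the gene's response to LIF. Whether a motif goes with such a response was not tested. Dusp5 (chr19:53529033-53529112, plus strand) has 2 adjacent CArG boxes. Braf (chr6:39725507-39725592, minus strand), Dusp1 (chr17:26508578-26508645, minus strand) and Ptpn11 (chr5:121191427-121191494, minus strand) have CREB motifs, Braf a pair of them, and Shc1 (chr3:89421499-89421565, plus strand) has an AP-1 motif. A match is a description of letters, not a bound site.
Dusp5: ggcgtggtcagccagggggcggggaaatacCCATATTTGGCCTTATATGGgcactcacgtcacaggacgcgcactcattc
Braf: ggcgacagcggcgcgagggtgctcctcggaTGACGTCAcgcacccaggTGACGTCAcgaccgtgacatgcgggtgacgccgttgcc
Dusp1: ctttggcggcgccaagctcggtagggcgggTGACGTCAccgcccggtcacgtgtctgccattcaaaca
Ptpn11: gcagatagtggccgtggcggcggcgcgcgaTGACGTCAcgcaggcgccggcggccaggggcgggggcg
Shc1: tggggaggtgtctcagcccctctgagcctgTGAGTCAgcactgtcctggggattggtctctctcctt

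Per kilobase of exon, Etv5 was the most abundant of the 37 genes in Nanog cells with LIF and no Dox, with 3077 ± 108 normalised counts per kb (SD, n = 3), followed by Fgf4 with 1776 ± 397. Among the ligands, Fgf17 (231 ± 151) and Fgf15 (182 ± 88.2) came next, and these neighbours did not differ beyond their spread. Fgf1 had 28.1 ± 10.8, and Fgf5, Fgf8 and Fgf2 each had under 2 normalised counts per kb. Of the receptors, Fgfr1 had 194 ± 50.0, Fgfr2 19.0 ± 7.05, Fgfr4 15.7 ± 8.55 and Fgfr3 8.03 ± 4.50. Fgfr1 thus stood above the other receptors, whose levels did not differ beyond their spread. Fgfr1 is listed under a second identifier that held 38 counts in all libraries together.

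The first comparison asked how the pathway's genes changed when LIF was withdrawn without Dox. Both kinds of cells exchanged ligands, with Fgf5 and Fgf15 higher and Fgf4, Fgf1 and Fgf17 lower. The phosphatase genes Dusp4, Dusp5, Dusp6 and Dusp7 and the inhibitor Spry1 rose, whereas the inhibitor Spry2 and the immediate early genes Fos and Junb fell. Fgfr1 and Fgfr2 rose and Fgfr4 fell. In Nanog cells 25 of the 35 genes tested were called at an adjusted p-value under 0.05, 15 higher and 10 lower, where 41.5% of all genes tested were called (20.2% higher and 21.3% lower). The count in Nanog/Otx2 cells was 24 of 36, 14 higher and 10 lower, where 49.8% of all genes were called (24.6% higher and 25.2% lower). Of the 35 genes tested in both kinds, 20 were called in both, 12 higher and 8 lower, and 0 in opposite directions. The share of all genes called in both kinds is not given here. These counts thus do not show that the 37 genes were more alike between the kinds than other genes. The median log2 fold change was 0.04 in Nanog cells and 0.14 in Nanog/Otx2 cells, against −0.05 and −0.01 over all genes tested. These medians hold together roles that moved apart, from −0.72 for the ligands tested and −0.99 for the targets to 0.66 for the feedback genes and 0.54 for the cascade in Nanog cells. The same medians in Nanog/Otx2 cells were −0.57, −0.93, 0.58 and 0.41. Sums of 6 mesendoderm markers were higher without LIF as well, with 439 to 649 against 88.6 to 193 normalised counts in Nanog cells and 210 to 313 against 101 to 125 in Nanog/Otx2 cells, as were sums of 6 trophoblast markers, with 475 to 661 against 132 to 221 and 332 to 415 against 102 to 146. Eomes is in both lists, so these sums are not independent, and it rose by 1.74 and 1.19 on the log2 scale. Of the other mesendoderm markers, Mixl1 was called higher in both kinds of cells (1.84 and 1.59). Of the other trophoblast markers, Krt7 was called higher in both (1.31 and 2.07). Gata3 was not called in either, Hand1 was not called in Nanog cells, and Cdx2 and Elf5 were not tested. The part of these cell types in the values of the 37 genes was not tested.

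**Figure D1:**
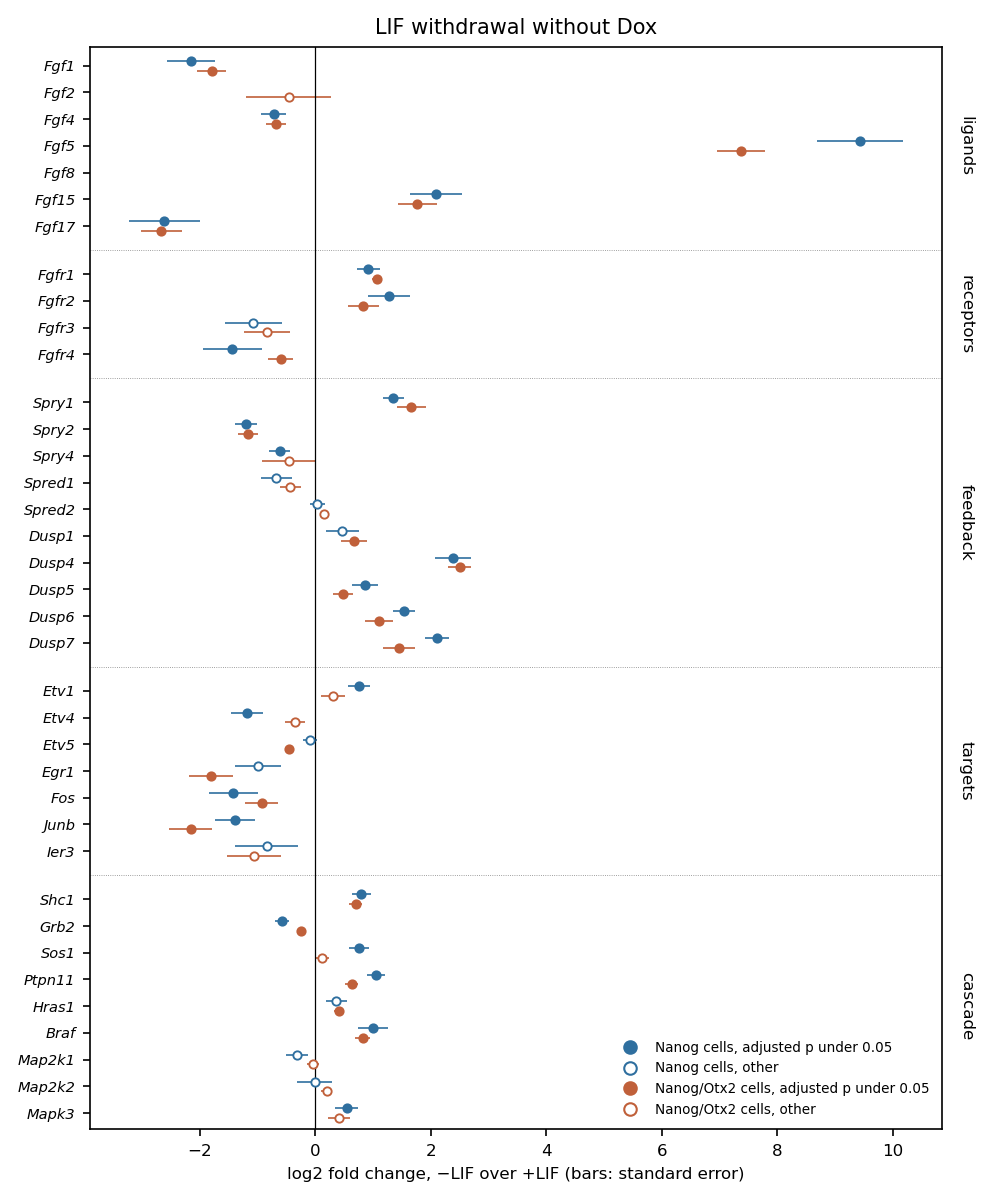
Log2 fold change of each gene after LIF withdrawal without Dox, in Nanog cells (blue) and Nanog/Otx2 cells (orange), with its standard error as a bar and genes grouped by role. Filled points have an adjusted p-value under 0.05 in edgeR. Fgf5 lies far to the right at 9.43 and 7.38, the Dusp genes lie above 0, and the targets Fos, Junb and Egr1 lie below 0.

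Fgf4, the autocrine ligand of ES cells, had 6724, 4398 and 5019 normalised counts in Nanog cells with LIF and 2744, 3934 and 3293 without. In Nanog/Otx2 cells it had 5589, 5061 and 4532 with LIF and 2685, 3445, 2729 and 4141 without. The libraries without LIF lay below those with LIF in both kinds of cells. Each adjusted p below comes from edgeR's quasi-likelihood fit, adjusted by the method of Benjamini and Hochberg. Fgf4 fell by 0.72 on the log2 scale in Nanog cells (standard error 0.22, adjusted p = 0.0201) and by 0.67 in Nanog/Otx2 cells (standard error 0.17, adjusted p = 0.0044). The call in Nanog cells was lost without the library C1-1 with LIF and without C1-1 or C2-1 without LIF (adjusted p from 0.0549 to 0.0883). Even so, Fgf4 kept a mean of 1097 normalised counts per kb without LIF in Nanog cells and 1073 in Nanog/Otx2 cells, the highest of the ligands in each.

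Fgf5, a ligand of the primed epiblast and a marker of it, went from 13.4, 0 and 1.25 normalised counts to 2558, 2528 and 2508 in Nanog cells. The change in Nanog/Otx2 cells was from 17.4, 9.07 and 0 to 2238, 2068, 1944 and 1929. Its level was near 0 in each library with LIF, and no groups overlapped. It rose by 9.43 on the log2 scale (standard error 0.75, adjusted p = 5.08e-06) in Nanog cells and 7.38 (standard error 0.41, adjusted p = 3.62e-09) in Nanog/Otx2 cells, and both rest on few counts with LIF. Per kilobase Fgf5 had 1012 ± 10.0 normalised counts (SD, n = 3) without LIF in Nanog cells, which did not differ from Fgf4 beyond the spread.

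Fgf15, the mouse counterpart of human FGF19, had 511, 262 and 215 normalised counts with LIF in Nanog cells and 1598, 1431 and 1184 without. In Nanog/Otx2 cells it had 452, 402 and 171 with LIF and 1274, 1619, 846 and 1284 without. It rose by log2 fold changes of 2.09 (standard error 0.45, adjusted p = 0.00335) and 1.77 (standard error 0.34, adjusted p = 0.000544), with no overlap of the groups. Fgf15 (chr7:152082437-152086858 in mm9, plus strand) lies downstream of Fgf4 (chr7:152047291-152051148, plus strand), and the pair moved in opposite directions.

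Fgf17, a ligand of the same subfamily as Fgf8, had 123, 416 and 629 normalised counts with LIF in Nanog cells and 32.6, 68.5 and 94.7 without. In Nanog/Otx2 cells it had 386, 345 and 620 with LIF and 51.5, 51.5, 75.8 and 108 without. The log2 fold changes were −2.61 in Nanog cells (standard error 0.62, adjusted p = 0.00573) and −2.67 in Nanog/Otx2 cells (standard error 0.35, adjusted p = 1.98e-05). Fgf1, a ligand that can bind the receptors of the family broadly, went from 187, 93.9 and 110 to 18.7, 45.2 and 25.8 normalised counts in Nanog cells. Nanog/Otx2 cells went from 169, 125 and 97.2 to 31.8, 47.6, 43.3 and 36.7. Its log2 fold changes were −2.15 (standard error 0.42, adjusted p = 0.00183) and −1.79 (standard error 0.25, adjusted p = 3.85e-05). For Fgf17 and Fgf1 alike, the groups with and without LIF did not overlap in either kind of cells.

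Fgf8 and Fgf2 were the ligands with the fewest counts. Fgf8 passed the filter in none of the comparisons and had 0, 5.03 and 2.50 normalised counts with LIF in Nanog cells and 39.9, 32.3 and 8.60 without, at least 4.81-fold higher when set against 3 counts per library. The Nanog/Otx2 libraries held 4.63 to 8.72 with LIF and 7.49 to 63.9 without, and these groups overlapped. Fgf2, basic FGF, had at most 5.36 normalised counts in any SunTag library without Dox, and was tested in Nanog/Otx2 cells but not in Nanog cells (log2 fold change −0.46, adjusted p = 0.637).

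**Figure D2:**
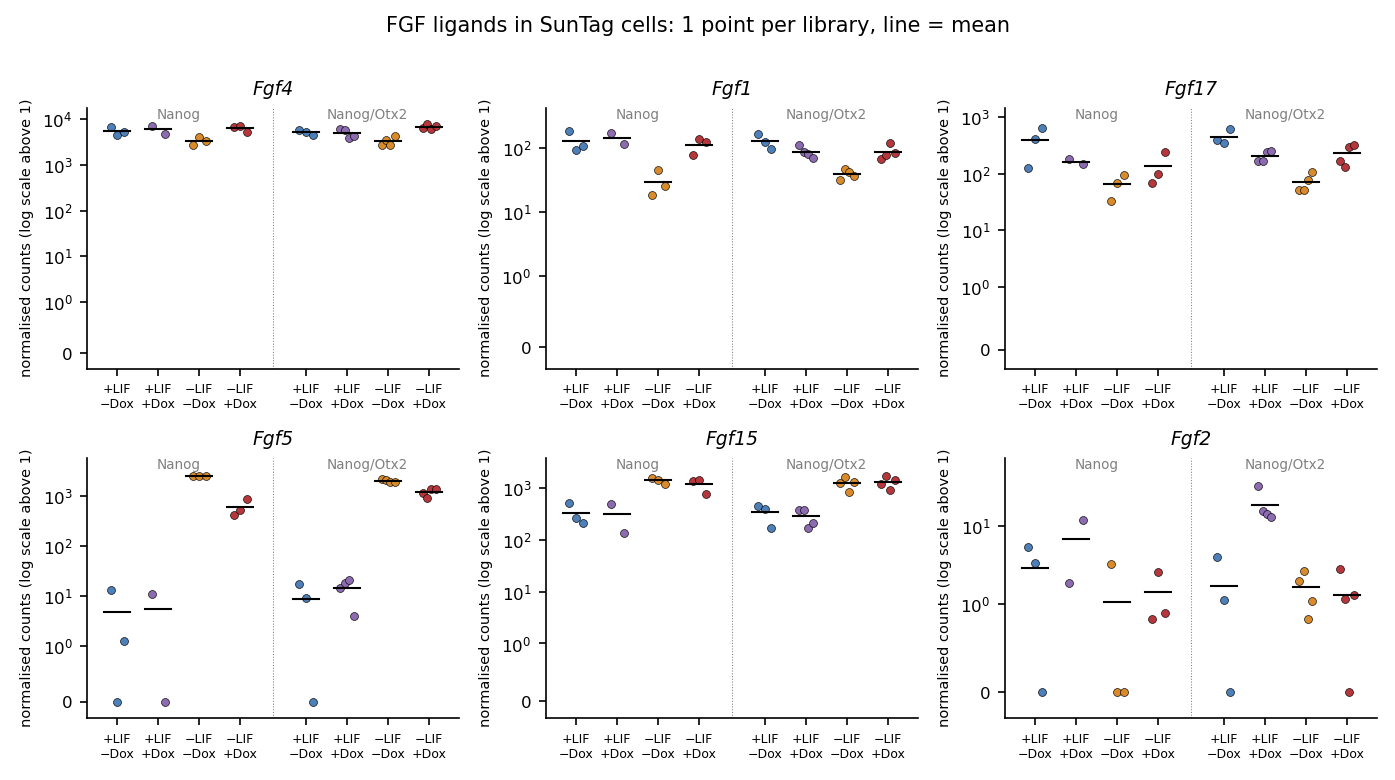
Normalised counts of 6 FGF ligands in SunTag cells, by LIF and Dox, on an axis that is logarithmic above 1. Each point is a library and each line a group mean. Fgf5 is near 0 in each group with LIF, Fgf4, Fgf1 and Fgf17 are lowest with neither LIF nor Dox, and Fgf2 is highest in Nanog/Otx2 cells with LIF and Dox.

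Among the receptors, Fgfr1, the main FGF receptor of ES cells, had 1109, 1867 and 1722 normalised counts with LIF in Nanog cells and 2991, 2554 and 3442 without. Its levels in Nanog/Otx2 cells were 1523, 1641 and 2009 with LIF and 3743, 3628, 3741 and 3668 without. Fgfr1 rose by 0.92 on the log2 scale (standard error 0.20, adjusted p = 0.00317) in Nanog cells and 1.08 (standard error 0.088, adjusted p = 1.66e-07) in Nanog/Otx2 cells, where the 4 libraries without LIF lay close together. Fgfr2, a receptor known for its role in the primitive endoderm, rose by 1.28 (adjusted p = 0.0144) and 0.83 (adjusted p = 0.0188), from 88.0 to 251 normalised counts in the 6 SunTag libraries with LIF and no Dox to 278 to 485 in the 7 without LIF. That call was lost without C2-2 with LIF or C1-2 without LIF in Nanog cells (adjusted p = 0.0575 and 0.062), there also with the numbers of the column names as a block (log2 fold change 0.80, adjusted p = 0.0767), and without C1ON3-2 or C2ON3-1 with LIF in Nanog/Otx2 cells (adjusted p = 0.0707 and 0.0563). Fgfr4 fell by 1.44 (adjusted p = 0.0409) and 0.60 (adjusted p = 0.0321), from levels of at most 78.8 normalised counts. In Nanog cells its call was lost without any 1 of 8 of the 11 libraries, all but C1-1 with LIF alone, C2-1 with LIF and Dox and C2-1 with neither (adjusted p up to 0.142). Nanog/Otx2 cells lost it without C1ON3-2 or C2ON3-1 with LIF alone or C2ON3-1 or C2ON3-2 with neither (adjusted p up to 0.123). It was also lost with the clone as a block in Nanog cells (adjusted p = 0.0559) and with DESeq2 in Nanog/Otx2 cells (adjusted p = 0.0522). Fgfr3 had log2 fold changes of −1.08 (adjusted p = 0.10) and −0.84 (adjusted p = 0.099) and was not called. The 8 markers of the primitive endoderm summed to between 2968 and 5149 normalised counts with LIF and between 2432 and 2581 without in Nanog cells. In Nanog/Otx2 cells they summed to between 3559 and 4888 with LIF and between 1463 and 3282 without. Lama1 (−2.06 and −2.17) and Pdgfra (−1.57 and −1.14) were called lower in both kinds of cells. Gata4, Gata6, Sox17 and Sox7 were called lower in Nanog cells alone. Dab2 went the other way, with 0.84 in Nanog cells (adjusted p = 0.11) and 1.85 in Nanog/Otx2 cells (adjusted p = 0.00123). The part of these markers in the Fgfr2 value was not tested.

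Of the MAPK phosphatases, Dusp4, which acts on ERK in the nucleus, had 161, 168 and 104 normalised counts with LIF in Nanog cells and 663, 565 and 1040 without. Nanog/Otx2 cells had 225, 220 and 167 with LIF and 923, 1040, 1470 and 1413 without. Its rise of 2.38 (standard error 0.31, adjusted p = 0.000141) and 2.50 (standard error 0.19, adjusted p = 1.01e-07) on the log2 scale was the largest among the feedback genes in each kind of cells.

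Dusp6, the ERK phosphatase of the cytoplasm, rose from 1242, 895 and 994 to 2907, 3229 and 3026 normalised counts in Nanog cells. The rise in Nanog/Otx2 cells was from 1066, 1225 and 1120 to 1836, 3111, 1877 and 3220. The log2 fold changes were 1.53 (standard error 0.19, adjusted p = 0.0001) and 1.11 (standard error 0.24, adjusted p = 0.00153), and the spread without LIF was wider in Nanog/Otx2 cells, where both libraries numbered 2 stood above both numbered 1. Dusp7, another cytoplasmic ERK phosphatase, rose from 102, 164 and 119 to 616, 518 and 545 normalised counts in Nanog cells. It rose from 142, 234 and 245 to 540, 662, 455 and 604 in Nanog/Otx2 cells. Its log2 fold changes were 2.10 (standard error 0.21, adjusted p = 2.02e-05) and 1.45 (standard error 0.28, adjusted p = 0.000496). Dusp5, a nuclear ERK phosphatase whose promoter holds the CArG boxes shown above, rose by 0.86 (adjusted p = 0.00999) and 0.48 (adjusted p = 0.0292), the second call being lost without any 1 of 4 libraries (C1ON3-1 or C2ON3-1 with LIF, C2ON3-1 or C2ON3-2 without, adjusted p from 0.0546 to 0.092) and with a GC correction (adjusted p = 0.107). Dusp1, a nuclear phosphatase of several MAP kinases with a CREB motif in its promoter, was called in Nanog/Otx2 cells (log2 fold change 0.67, adjusted p = 0.0193, or 0.0738 without C2ON3-1 with LIF) and not in Nanog cells (0.47, adjusted p = 0.213).

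The Sprouty genes, inhibitors between receptor and RAS, did not move together. Spry1 rose from 273, 231 and 260 to 717, 663 and 595 normalised counts in Nanog cells. It rose from 274, 290 and 148 to 914, 940, 646 and 718 in Nanog/Otx2 cells, with log2 fold changes of 1.35 (standard error 0.18, adjusted p = 0.000158) and 1.66 (standard error 0.25, adjusted p = 6.77e-05). Spry2, in contrast, fell from 3053, 2298 and 2639 to 998, 1542 and 983 normalised counts in Nanog cells. The fall in Nanog/Otx2 cells was from 1756, 2524 and 2356 to 788, 1135, 1008 and 1095. The log2 fold changes of Spry2 were −1.20 (standard error 0.19, adjusted p = 0.000552) and −1.17 (standard error 0.17, adjusted p = 5.6e-05), and its groups, like those of Spry1, did not overlap. Spry4 fell by 0.62 in Nanog cells (adjusted p = 0.0172, or 0.051 and 0.0701 without C2-2 with LIF or C1-1 without LIF), and in Nanog/Otx2 cells its log2 fold change was −0.46 (adjusted p = 0.428, or −0.67 with adjusted p = 0.0018 with the replicate number as a block). The Sprouty-related inhibitors Spred1 (−0.67 and −0.44, adjusted p = 0.0606 and 0.059, or −0.51 with 0.00183 in the second with the block) and Spred2 (0.04 and 0.15, adjusted p = 0.833 and 0.0902) were not called.

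**Figure D3:**
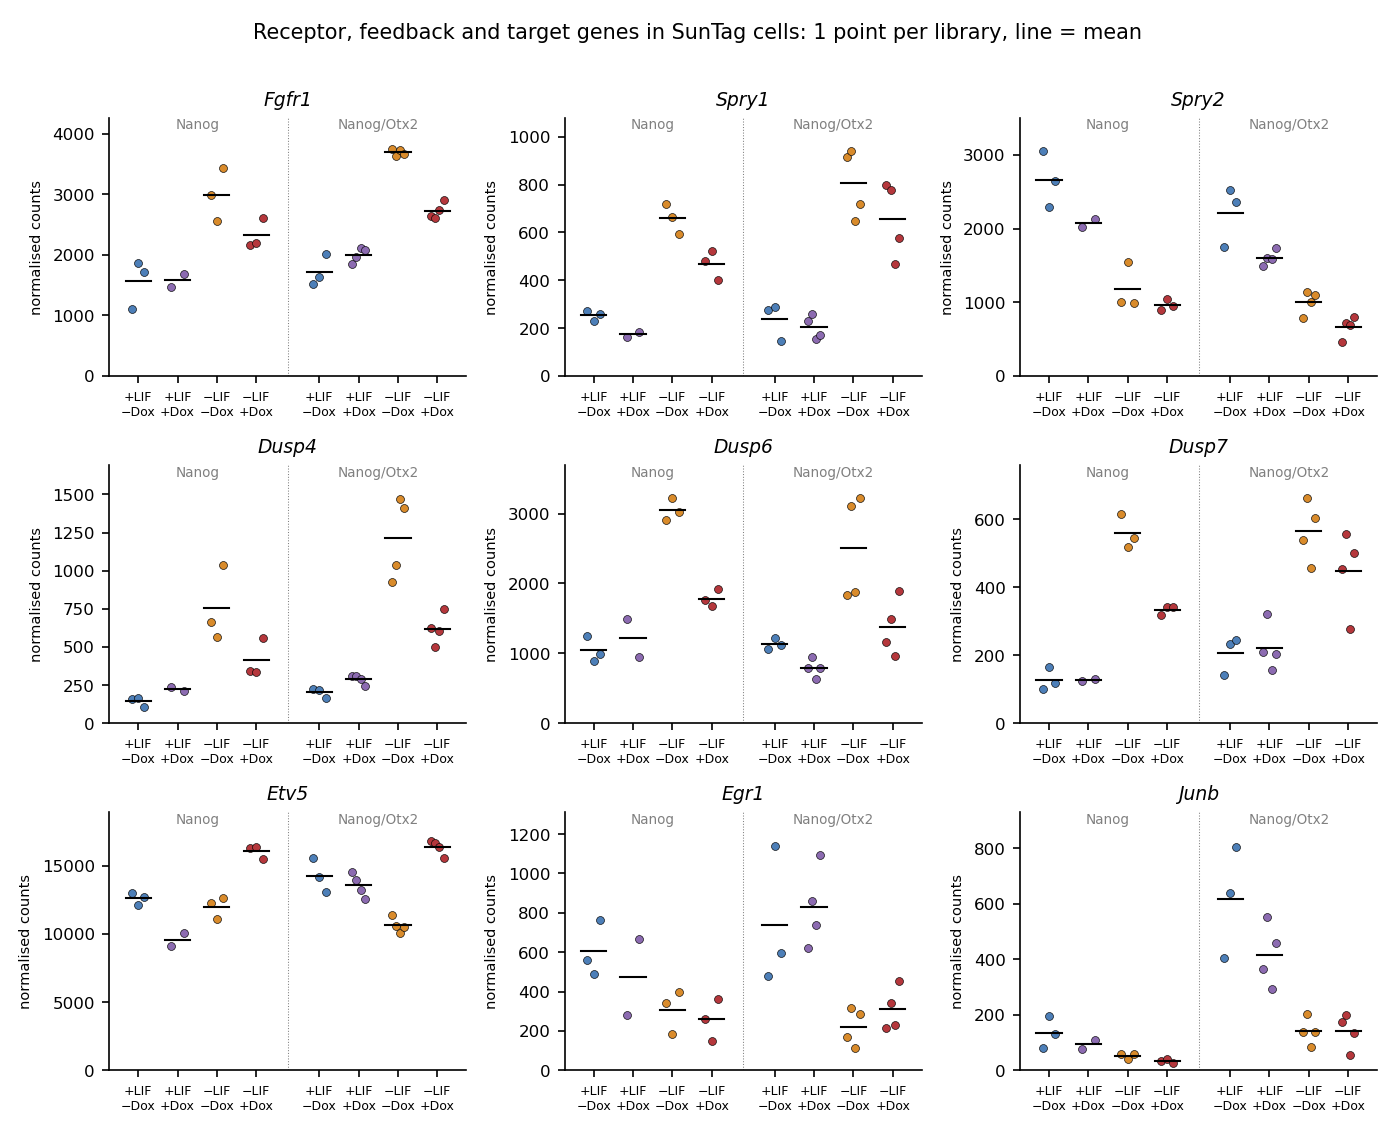
Normalised counts of 9 receptor, feedback and target genes in SunTag cells, by LIF and Dox. Each point is a library and each line a group mean, and each axis starts at 0. Fgfr1, Spry1, Dusp4, Dusp6 and Dusp7 are highest with neither LIF nor Dox, Spry2 and Junb are highest with LIF and no Dox, and Etv5 is highest with Dox and no LIF.

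Most of the targets tested had lower values without LIF. Junb, an AP-1 subunit and an early target of both LIF and ERK signalling, had 80.3, 196 and 130 normalised counts with LIF in Nanog cells and 58.6, 40.1 and 57.8 without. The Nanog/Otx2 libraries held 405, 639 and 805 with LIF and 138, 202, 84.1 and 137 without. It fell, with log2 fold changes of −1.39 (standard error 0.35, adjusted p = 0.00841) and −2.16 (standard error 0.37, adjusted p = 0.000206) on the log2 scale. Fos, another AP-1 subunit, fell by 1.42 (adjusted p = 0.02) and 0.93 (adjusted p = 0.0117), from levels of at most 63.7 normalised counts. These calls were lost without C2-1 or C2-2 with LIF or C1-1 without LIF in Nanog cells (adjusted p from 0.058 to 0.0869) and without C1ON3-2 with LIF in Nanog/Otx2 cells (adjusted p = 0.0942).

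Egr1, a zinc finger immediate early gene, had 491 to 763 normalised counts with LIF in Nanog cells and 185 to 396 without (log2 fold change −0.99, adjusted p = 0.0682). Its levels in Nanog/Otx2 cells were 478 to 1140 with LIF and 112 to 318 without, a fall of 1.81 (adjusted p = 0.000993). The groups did not overlap in either. Ier3, an immediate early gene that can sustain ERK activity, had −0.84 (adjusted p = 0.235) and −1.06 (adjusted p = 0.0692, or 0.00217 with the replicate block). The ETS factors of the PEA3 group, which are widely used as FGF targets, went different ways. Etv1 rose in Nanog cells (0.76, adjusted p = 0.00702) and had 0.31 in Nanog/Otx2 cells (adjusted p = 0.245), Etv4 fell in Nanog cells (−1.18, adjusted p = 0.00559) and had −0.36 in Nanog/Otx2 cells (adjusted p = 0.102, or 0.000431 with the replicate block), and Etv5 fell in Nanog/Otx2 cells (−0.46, adjusted p = 0.000116) and had −0.09 in Nanog cells (adjusted p = 0.56).

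In the cascade, the changes were smaller. Shc1, an adaptor with the AP-1 motif shown above, rose by 0.79 (adjusted p = 0.00275) and 0.70 (adjusted p = 0.000125). Ptpn11, the phosphatase SHP2 that carries the signal from receptor to RAS, rose by 1.06 (adjusted p = 0.000346) and 0.63 (adjusted p = 0.000249), and Braf, the RAF kinase, by 0.99 (adjusted p = 0.0099) and 0.82 (adjusted p = 6.7e-05), the latter pair having CREB motifs in their promoters. Grb2, the adaptor that binds the RAS activator SOS, fell by 0.58 (adjusted p = 0.00272) and 0.25 (adjusted p = 0.00275). Sos1 rose in Nanog cells (0.76, adjusted p = 0.00415) and had 0.12 in Nanog/Otx2 cells (adjusted p = 0.358). Hras1, a RAS gene, rose in Nanog/Otx2 cells (0.41, adjusted p = 0.00162) and had 0.36 in Nanog cells (adjusted p = 0.137). Mapk3, which encodes ERK1, rose by 0.54 in Nanog cells (adjusted p = 0.049, but 0.0747 with the clone as a block, 0.103 with a GC correction and up to 0.127 without any 1 of 8 of the 11 libraries, all but the pair with LIF and Dox and C2-2 with Dox alone) and had 0.41 in Nanog/Otx2 cells (adjusted p = 0.0959, or 0.000136 with the replicate block). The MEK genes Map2k1 (−0.31 and −0.04, adjusted p = 0.199 and 0.808) and Map2k2 (−0.01 and 0.19, adjusted p = 0.979 and 0.0875, or 0.0376 in the second with the block) were not called.

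LIF withdrawal in the presence of Dox left part of this pattern. Nanog was induced throughout in both kinds of cells, and Otx2 as well in Nanog/Otx2 cells. In Nanog cells 15 of 35 genes were called, 11 higher and 4 lower, where 32.6% of all genes were called, and in Nanog/Otx2 cells 25 of 36, 18 higher and 7 lower, where 36.5% were. Fgf5 (7.26 and 6.52), Fgf15 (1.96 and 2.21), Spry1 (1.45 and 1.68) and Dusp7 (1.41 and 1.01) rose and Spry2 (−1.08 and −1.28), Fos (−2.07 and −1.46) and Junb (−1.43 and −1.57) fell in both kinds of cells. The call of Fgf15 in Nanog cells was lost without C2-1 with LIF and Dox (adjusted p = 0.0734), and that of Junb without that library or C1-1 or C2-2 without LIF (adjusted p from 0.051 to 0.103). Fgf1 (−0.31 and −0.01, adjusted p = 0.605 and 0.983) and Fgf17 (−0.24 and 0.13, adjusted p = 0.797 and 0.776) were not called. Fgf4 had 0.11 in Nanog cells (adjusted p = 0.754) and rose by 0.45 in Nanog/Otx2 cells (adjusted p = 0.0395), a call that was lost without any 1 of 5 libraries (adjusted p from 0.0502 to 0.118). Those libraries were C1ON3-2 with LIF and no Dox, C2ON3-1 or C2ON3-2 with LIF and Dox, and C1ON3-2 or C2ON3-2 with Dox alone. With the clone as a block, Fgfr1 (0.64), Dusp4 (0.93), Dusp6 (0.57) and Etv4 (−0.78) were called in Nanog cells too (adjusted p from 0.00634 to 0.0316), against 0.58, 0.91, 0.58 and −0.84 without it (adjusted p from 0.05 to 0.0605). With the replicate number as a block, Fgfr3, Spred1, Etv4, Map2k1 and Mapk3 were called in Nanog/Otx2 cells as well (adjusted p from 9.89e-05 to 0.045).

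The next comparison asked how Dox changed the genes in cells without LIF. Dox raised Nanog in both kinds of cells. Otx2 rose in Nanog/Otx2 cells (log2 fold change 0.85, adjusted p = 0.000566) and had −0.76 in Nanog cells (adjusted p = 0.0658). In Nanog/Otx2 cells the parts of Nanog and of Otx2 in a change thus cannot be told apart. Fgf4 and Fgf1 rose and Dusp6 fell in both kinds of cells. In Nanog cells 4 of 35 genes were called, where 5.14% of all genes were called (3.6% higher and 1.54% lower). Fgf4 and Fgf1 were higher and Fgf5 and Dusp6 lower. Of 36 genes in Nanog/Otx2 cells 8 were called, where 17.3% of all genes were called (11.2% higher and 6.15% lower). Fgf1, Fgf4, Fgf17 and Etv5 were higher, and Fgfr1, Spry2, Dusp4 and Dusp6 lower. With the replicate number as a block, 17 were called in Nanog/Otx2 cells, 8 higher and 9 lower, where 33.4% of all genes were called with that block. The calls in Nanog cells came from 3 libraries against 3, and the count of 4 went to 0 when C1-1 or C2-1 without LIF or Dox, or C1-1b without LIF and with Dox, was left out, to 1 without C1-1 without LIF and with Dox, and to 2 without C1-2 with neither. In the markers of state, the sum of the 8 naive genes went from 2099 to 3419 normalised counts without Dox to 20248 to 23060 with it in Nanog cells, and the sum of the 7 primed genes from 83802 to 103102 to 43622 to 49884. The part of such a change of state in the values of single genes was not tested.

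**Figure D4:**
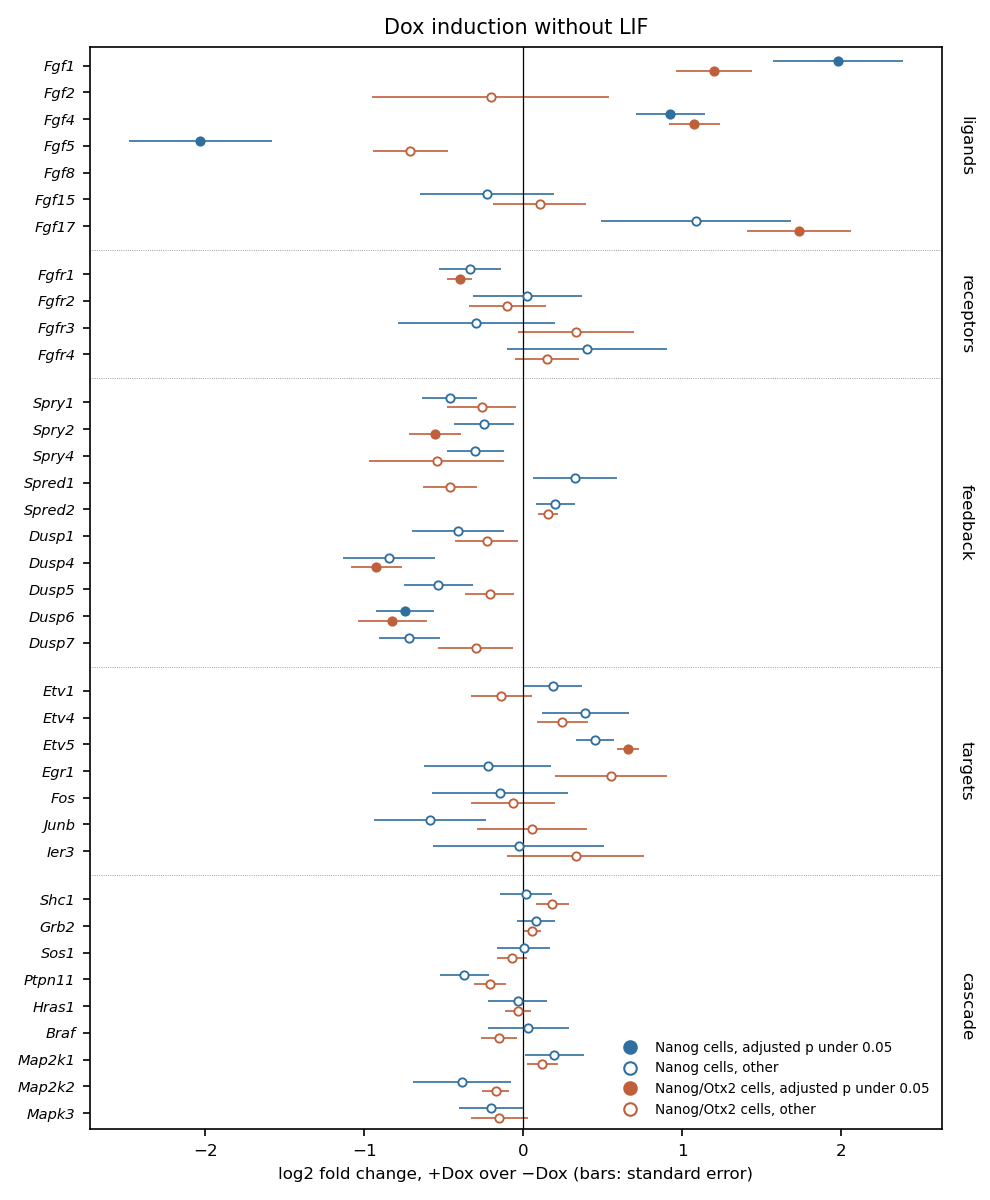
Log2 fold change of each gene with Dox over without Dox, both without LIF, in Nanog cells (blue) and Nanog/Otx2 cells (orange), with its standard error as a bar. Filled points have an adjusted p-value under 0.05 in edgeR. Fgf1 and Fgf4 lie above 0 and Dusp6 below 0 as filled points in both kinds of cells, and Fgf5 lies at −2.03 in Nanog cells and −0.71 in Nanog/Otx2 cells.

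Fgf4 without LIF had 6510, 6807 and 5205 normalised counts with Dox in Nanog cells, against 2744, 3934 and 3293 without Dox. Nanog/Otx2 cells had 6165, 7591, 5846 and 7114 with Dox, against 2685, 3445, 2729 and 4141. The libraries with Dox lay above those without in both. Fgf4 thus rose by 0.92 on the log2 scale (standard error 0.22, adjusted p = 0.0306) in Nanog cells and 1.08 (standard error 0.16, adjusted p = 0.000392) in Nanog/Otx2 cells. In Nanog cells the adjusted p was between 0.0845 and 0.136 when C1-1 or C2-1 without Dox, or C1-1 or C1-1b with Dox, was left out.

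Fgf1 had 78.5, 140 and 126 normalised counts with Dox in Nanog cells, against 18.7, 45.2 and 25.8 without. The Nanog/Otx2 libraries held 68.0, 79.4, 123 and 84.2, against 31.8, 47.6, 43.3 and 36.7. It rose by 1.98 (standard error 0.41, adjusted p = 0.0166) and 1.20 (standard error 0.24, adjusted p = 0.00321), with no overlap of the groups, and the adjusted p in Nanog cells was between 0.0618 and 0.087 without C1-1 or C2-1 without Dox or C1-1b with Dox. Fgf17 had 68.9, 96.9 and 239 normalised counts with Dox in Nanog cells, which overlapped the 32.6, 68.5 and 94.7 without it (log2 fold change 1.08, adjusted p = 0.377). Its 164, 131, 299 and 325 with Dox in Nanog/Otx2 cells stood above the 51.5, 51.5, 75.8 and 108 without, a rise of 1.74 (standard error 0.33, adjusted p = 0.00222).

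Fgf5 had 422, 530 and 866 normalised counts with Dox and no LIF in Nanog cells, against 2558, 2528 and 2508 without Dox. Its levels in Nanog/Otx2 cells were 1172, 915, 1371 and 1405, against 2238, 2068, 1944 and 1929. The libraries with Dox lay below those without it, and far above those with LIF. In Nanog cells Fgf5 fell by 2.03 on the log2 scale (standard error 0.45, adjusted p = 0.0231), a call that was lost without any of C1-1, C1-2 and C2-1 without Dox or C1-1 and C1-1b with Dox (adjusted p from 0.0618 to 0.137). DESeq2 gave it an adjusted p of 0.261. The value in Nanog/Otx2 cells was −0.71 (standard error 0.24, adjusted p = 0.0516), or −0.72 with the replicate block (adjusted p = 0.0084). Fgf15, in contrast, had log2 fold changes of −0.23 (adjusted p = 0.856) and 0.10 (adjusted p = 0.851).

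Dusp6 had 1758, 1679 and 1915 normalised counts with Dox in Nanog cells, against 2907, 3229 and 3026 without. Nanog/Otx2 cells had 1161, 1486, 965 and 1897, against 1836, 3111, 1877 and 3220, and the highest library with Dox lay above the lower pair without it. It fell by 0.75 (standard error 0.18, adjusted p = 0.0394) and by 0.83 (standard error 0.22, adjusted p = 0.0176). In Nanog cells the call was lost in 7 of 11 fits that left out 1 library (adjusted p from 0.0532 to 0.144), those 7 being C2-2 with LIF and no Dox and the 6 libraries without LIF, and in Nanog/Otx2 cells without C1ON3-2 or C2ON3-2 without Dox or C1ON3-1 with Dox (adjusted p from 0.0524 to 0.0572). Dusp4 had 343, 336 and 557 normalised counts with Dox in Nanog cells, below 663, 565 and 1040 without (log2 fold change −0.85, adjusted p = 0.13). Its 625, 501, 601 and 752 in Nanog/Otx2 cells lay below 923, 1040, 1470 and 1413, a fall of 0.93 (standard error 0.16, adjusted p = 0.00121).

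Fgfr1 had 2164, 2205 and 2610 normalised counts with Dox in Nanog cells (log2 fold change −0.34, adjusted p = 0.405). Its 2645, 2614, 2742 and 2914 in Nanog/Otx2 cells lay below the 3628 to 3743 without Dox, a fall of 0.40 (standard error 0.078, adjusted p = 0.00286). Spry2 had 457, 718, 688 and 797 normalised counts in Nanog/Otx2 cells with Dox, of which the last overlapped the group without Dox, and fell by 0.56 (adjusted p = 0.0291, or 0.062 to 0.0787 without C1ON3-2, C2ON3-1 or C2ON3-2 without Dox or C1ON3-1 with Dox), where in Nanog cells it had −0.25 (adjusted p = 0.562). Etv5 had 16324, 16341 and 15518 normalised counts with Dox in Nanog cells, above 12247, 11100 and 12646 without (log2 fold change 0.45, adjusted p = 0.0532, or 0.0317 with the clone as a block). The Nanog/Otx2 libraries held 16814, 16641, 16388 and 15586 with Dox, above 11380, 10556, 10094 and 10543 without, a rise of 0.66 (standard error 0.068, adjusted p = 1.86e-05). Dusp7 had −0.72 in Nanog cells (adjusted p = 0.0569, or 0.0303 with the clone as a block) and −0.30 in Nanog/Otx2 cells (adjusted p = 0.423). With the replicate block in Nanog/Otx2 cells, Spry1 (−0.28), Spry4 (−0.54), Spred1 (−0.48) and Ptpn11 (−0.20) were also called lower and Spred2 (0.16), Etv4 (0.25), Egr1 (0.55) and Shc1 (0.18) higher, with adjusted p-values between 0.00401 and 0.0334, against 0.0745 to 0.45 without it. Of the 9 cascade genes, 0 were called in either kind of cells without a block.

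With LIF, few of these genes were called for Dox by edgeR without a block. The induced gene Nanog was itself not called in Nanog cells (log2 fold change 1.74, adjusted p = 0.0793). A missing call there thus does not show that a gene was unchanged. In Nanog cells 0 of 35 were called by edgeR, where 0.563% of all genes were called. With the clone as a block 1 was called (Shc1, log2 fold change 0.70, adjusted p = 0.0329), where 1.88% of all genes were. DESeq2 called 3 of the 35, and it also called more of all genes than edgeR did. In edgeR 5 of the 35 had an unadjusted p-value under 0.05. The share of all genes with such a p-value is not given here, so that count is not a result about the 35. Of 36 genes tested in Nanog/Otx2 cells, 3 were called, where 22.9% of all genes were called (12.9% higher and 10% lower), and 12 with the replicate number as a block, where 41% of all genes were called with it. Fgf2 had 31.3, 15.1, 14.0 and 12.7 normalised counts with Dox and 4.02, 1.13 and 0 without, a rise of 2.94 (standard error 0.59, adjusted p = 0.0029) from 10 to 30 counts per library against at most 6. Fgf2 stood above the group without Dox in each library with LIF and Dox, but its counts were few. Without LIF it had at most 2.80 normalised counts in Nanog/Otx2 cells, so that with Dox it was at least 6.06-fold lower without LIF than with it. Fgf17 had 166, 170, 241 and 253 with Dox, below 386, 345 and 620 without, a fall of 1.06 (standard error 0.34, adjusted p = 0.0339). Spred1 had 1404, 1702, 1651 and 2032 with Dox and 1989, 2982 and 2671 without, groups that overlapped, and fell by 0.57 (standard error 0.18, adjusted p = 0.0363). Each of these 2 calls was lost without any 1 of 5 libraries (C2ON3-1 without Dox, C1ON3-1, C1ON3-2 or C2ON3-1 with Dox, and C1ON3-1 without Dox for Fgf17 or C1ON3-2 without Dox for Spred1), with adjusted p up to 0.117 and 0.183. With the replicate block, Spry2 (−0.49), Spry4 (−1.37), Spred2 (−0.22), Dusp1 (−0.44), Dusp6 (−0.61), Etv1 (−0.43) and Sos1 (−0.28) were also lower and Fgfr1 (0.23) and Shc1 (0.35) higher, with adjusted p-values between 3.71e-05 and 0.0269, against 0.0515 to 0.171 without it.

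Whether the response to Dox differed between cells with and without LIF was tested as an interaction. It was called in Nanog/Otx2 cells for 7 of 36 genes, where 9.7% of all genes were called (5.15% higher and 4.55% lower), and in Nanog cells for 1 of 35 (Etv5), where 1.93% were (1.32% higher and 0.608% lower). For Fgf1 (1.78, adjusted p = 0.00451), Fgf4 (1.12, adjusted p = 0.00721), Fgf17 (2.80, adjusted p = 0.00195) and Etv5 (0.71, adjusted p = 0.000573) the log2 fold change with Dox was higher without LIF than with it. Fgf4, for example, had 5850, 5617, 3714 and 4238 normalised counts with LIF and Dox, which overlapped the 4532 to 5589 with LIF alone. For Dusp4 (−1.40, adjusted p = 0.00269) and Fgfr1 (−0.64, adjusted p = 0.00321) it was lower. For Spred2, which had 1650, 1767, 1751 and 1833 normalised counts with LIF and Dox, 1890, 2170 and 2032 with LIF alone, 2372, 2528, 2537 and 2571 with Dox alone and 2271, 2165, 2441 and 2334 with neither, it was 0.36 (adjusted p = 0.0268). That call was lost without any 1 of 8 of the 15 libraries (adjusted p from 0.0503 to 0.101), namely C1ON3-2 with LIF alone, C1ON3-1 and C2ON3-1 with LIF and Dox, C1ON3-1 and C1ON3-2 with neither and C1ON3-2, C2ON3-1 and C2ON3-2 with Dox alone. With the replicate block, Fgf2 (−3.25, adjusted p = 0.01) and Spry4 (0.83, adjusted p = 0.012) were called too. The Etv5 interaction of Nanog cells (0.86, standard error 0.18, adjusted p = 0.0364), where it had 9124 and 10047 normalised counts with LIF and Dox and 13003, 12134 and 12733 with LIF alone, was lost when any 1 of 10 of the 11 libraries was left out, all but C1-1 with LIF and no Dox (adjusted p from 0.0523 to 0.114).

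Nanog/Otx2 and Nanog cells were also compared with each other, to ask what raising Otx2 together with Nanog changed. The difference between their responses to Dox without LIF, in which differences between the experiments cancel, was called for 0 of 36 genes, where 0.0308% of all genes were called (923 genes had an unadjusted p-value under 0.05). DESeq2 called 0 of the 36 as well. The largest differences of ligand and feedback genes were those of Fgf5 (1.28, standard error 0.48) and Spred1 (−0.83, standard error 0.31), each with an adjusted p of 0.731. Otx2 in cells with Dox and no LIF was at 6827 to 7347 normalised counts in Nanog/Otx2 cells and at 2248 to 2620 in Nanog cells.

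Compared directly with Dox and without LIF, 10 of 36 genes differed, 4 higher and 6 lower in Nanog/Otx2 cells, where 41% of all genes were called (20.1% higher and 20.9% lower). In this comparison the guides and the series of libraries cannot be told apart. With a correction for GC content 7 of the 36 were called, including genes outside the 10. Etv1 had 577, 672, 724 and 668 normalised counts in Nanog/Otx2 cells and 1219, 1209 and 1261 in Nanog cells, a log2 fold change of −0.96 (adjusted p = 0.000543). Sos1 had 1044, 1238, 1147 and 1151 against 2425, 2552 and 2356, or −1.16 (adjusted p = 5.18e-07). Spred2 had 2372, 2528, 2537 and 2571 against 2985, 3111 and 2965, or −0.34 (adjusted p = 0.00225). None of these groups overlapped. Map2k2 was higher in Nanog/Otx2 cells, with 1875, 1936, 1593 and 1866 against 752, 870 and 785 (log2 fold change 1.11, adjusted p = 0.000346). Fgf5, with the values given above, was higher by 0.94 (adjusted p = 0.0352). Its call was lost without any of C1-1 and C1-1b in Nanog cells or C1ON3-1, C2ON3-1 and C2ON3-2 in Nanog/Otx2 cells, all with Dox and no LIF (adjusted p from 0.0535 to 0.161). Junb had 172, 201, 54.6 and 135 against 33.4, 42.0 and 27.1 and was higher by 1.97, or 0.83 after the GC correction, where its call was lost. Braf, with 2567, 2899, 3522 and 2913 against 4606, 4942 and 4729, was lower by 0.75, Spry2 by 0.61 and Spred1, with 1062, 1187, 1628 and 1565 against 2139, 1914 and 2743, by 0.80. After the correction these were −0.18, −0.33 and −0.26 and no longer called. Map2k1, with 4429, 3913, 3324 and 3784 against 3015, 3147 and 2484, was higher by 0.35 (adjusted p = 0.0441), a call lost with the correction and without any 1 of 8 of the 26 libraries (adjusted p from 0.0502 to 0.191). Those were C1-1 and C2-2 of the Nanog cells and C1ON3-1, C1ON3-2 and C2ON3-2 of the Nanog/Otx2 cells with Dox alone, C1ON3-2 with LIF alone, C2ON3-2 with LIF and Dox and C2ON3-2 with neither.

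In 44iN cells the question was what Nanog does in LIF when a transgene supplies or withholds it. Dox was compared with 24 h without it, in 2 libraries against 2. No gene was called by edgeR without a block, members included (0 of 33 tested, 0% of all genes). Of all genes, 1023 had an unadjusted p-value under 0.05 in edgeR, and DESeq2 called 141 genes and 0 of the 33. With the replicate number of the titles as a block, edgeR called 8 of the 33, where 13.3% of all genes were called. The count changed when either library with Dox was left out. Such a fit leaves 1 library in that group, so its count is not given. Nanog itself was not called by edgeR without a block (log2 fold change 4.56, adjusted p = 0.0902). The values that follow are examples whose groups did not overlap, which with 2 libraries against 2 is common for unchanged genes too. Fgf2 had 22.8 and 34.2 normalised counts with Dox and 2.40 and 0 without, at least 3.55-fold higher with Dox when set against 3 counts per library. Fgf17 had 72.3 and 96.4 against 33.6 and 29.6. Spry4 had 4762 and 5129 against 7418 and 8371, Etv1 1442 and 1079 against 2294 and 2150, Dusp1 253 and 252 against 432 and 494, and Egr1 254 and 238 against 358 and 541. Fgf4 had 5323 and 4521 with Dox and 3948 and 4043 without (log2 fold change 0.39, adjusted p = 0.784). When Nanog cells with LIF were fitted jointly with 44iN cells, 0 of 35 genes were called by edgeR, where 0.307% of all genes were called (0.269% higher and 0.0384% lower), and 2 by DESeq2.

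**Figure D5:**
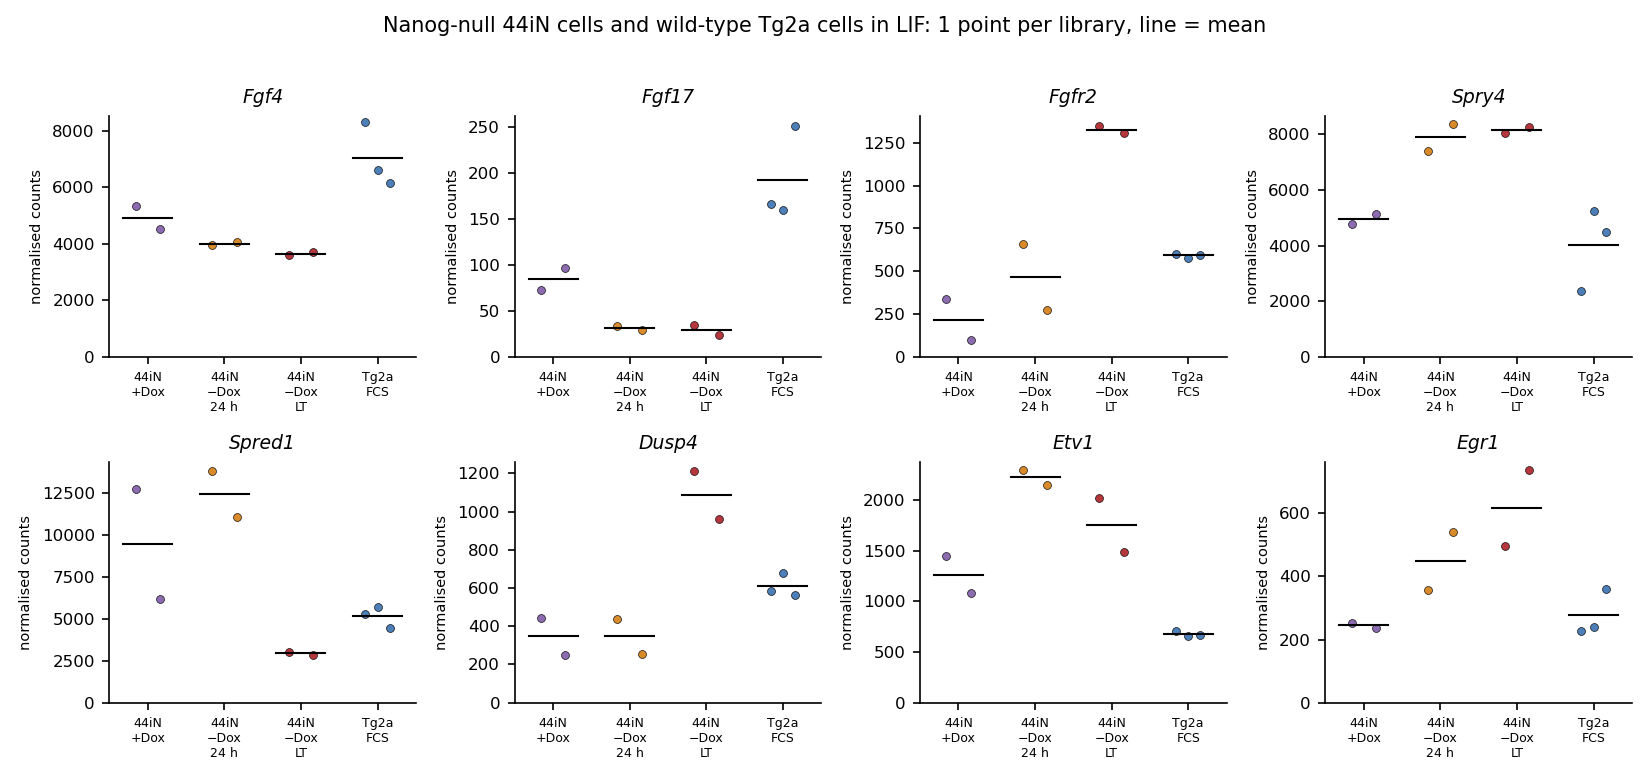
Normalised counts of 8 genes in wild-type Tg2a cells and in 44iN cells, which lack Nanog, kept in Dox, without Dox for 24 h or without Dox long-term (LT), all in LIF. Each point is a library and each line a group mean, and each axis starts at 0. Fgf4 and Fgf17 are lower and Fgfr2, Dusp4, Etv1 and Egr1 higher in long-term Nanog-null cells than in Tg2a cells.

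Long-term Nanog-null 44iN cells differed from wild-type Tg2a cells in 7 of 35 genes, 4 higher and 3 lower, where 8.61% of all genes were called (3.35% higher and 5.26% lower). Cell line, selection and Nanog cannot be told apart here. Fgf4 had 3590 and 3713 normalised counts against 8290, 6622 and 6158 in Tg2a cells (log2 fold change −1.02, standard error 0.17, adjusted p = 0.0151). Fgf17 had 35.0 and 23.8 against 166, 160 and 251 (−2.78, standard error 0.36, adjusted p = 0.00616). Spred1 had 3037 and 2845 against 5270, 5717 and 4468 (−0.89, standard error 0.17, adjusted p = 0.0197). Both ligands and the inhibitor were below each of the Tg2a libraries. Fgfr2 had 1346 and 1308 against 601, 579 and 595 (1.09, standard error 0.15, adjusted p = 0.00749), and Etv1 2016 and 1485 against 711, 653 and 666 (1.29, standard error 0.17, adjusted p = 0.00673). Dusp4 had 1214 and 961 against 586, 678 and 564 (0.76, adjusted p = 0.0436), and Egr1 495 and 738 against 226, 241 and 361 (1.08, adjusted p = 0.0481). None of the 7 pairs of groups overlapped, but the genes were taken for being called here, so this adds nothing to the calls. Each of these calls was lost when either long-term library was left out (adjusted p from 0.0537 to 0.408), and those of Fgf4 and Spred1 without Tg2a library 2 and of Dusp4 and Egr1 without Tg2a library 1 or 2 as well (adjusted p from 0.0552 to 0.153). The 8 primitive endoderm markers, whose cell type expresses Fgfr2, summed to 15957 and 25782 normalised counts in the long-term cells and to between 12084 and 18706 in Tg2a cells, so the groups overlapped, and their part in the Fgfr2 value was not tested. The naive markers summed to 34128 and 34256 in the long-term cells against 57610 to 62481 in Tg2a cells, and the primed markers to 19626 and 22629 against 10916 to 12182.

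Other genes of the pathway, 56 of 57 listed being found, moved in both directions as well. After LIF withdrawal without Dox, 14 of 45 tested rose and 6 fell in Nanog cells, and 18 of 46 rose and 7 fell in Nanog/Otx2 cells, against 41.5% and 49.8% of all genes called in either direction, with median log2 fold changes of 0.45 and 0.14. Among those that rose in both were the inhibitors Spred3 (2.59 and 2.96) and Il17rd (1.41 and 0.55), the phosphatase Dusp2 (2.64 and 2.17) and the transcription factor Srf (1.58 and 1.38). Fgf10 (−3.80 and −3.20), the adaptor Gab1 (−0.54 and −0.90) and the RAS inhibitor Rasa3 (−1.17 and −0.92) fell in both. With Dox and without LIF, 3 of 45 rose and 1 fell in Nanog cells and 6 of 46 rose and 4 fell in Nanog/Otx2 cells, where 5.14% and 17.3% of all genes were called. Gab1 (0.78 and 0.43), Rasa3 (0.74 and 0.89) and the phosphatase Dusp16 (1.43 and 1.23) rose and Spred3 (−0.95 and −0.70) fell in both.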

How the data were processed

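RNA-seq was available for 38 samples, of which 35 had a column in the tables and 3 samples of Tg2a cells in 2i medium were not analysed here. The authors aligned reads with STAR, estimated counts per gene with RSEM and normalised them with DESeq2 (CASAVA 1.8, per the labels' processing notes, mm9). The deposited tables hold estimated counts, which were rounded to whole numbers, and a signal, those counts divided by size factors by the authors, called normalised counts here. A gene was kept if some condition had 10 or more normalised counts in all its libraries, and kept genes were tested on the rounded counts with edgeR 4.0.16 (R 4.3.3, quasi-likelihood test, TMM), in 1 fit per cell system, with Benjamini-Hochberg adjustment over all genes tested and a threshold of 0.05. The standard error is the log2 fold change divided by the square root of F. Levels per kb used exon lengths of the mm9 annotation, matched for 37205 of 37620 genes. Groups and replicate numbers came from the sample titles. The column names give another number for C1-1 with LIF and Dox and for C1-1b and C2-2 with Dox alone. They also do so for C2ON3-1 of the Nanog/Otx2 cells with LIF alone. Of a symbol with several identifiers, that with the most counts was used.

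The 37 genes, the other lists and the tests were chosen with earlier results of these data known. The genes named in the text are the 37 members and, of the other pathway genes, examples from the listed set. On simulated counts with 200 genes changed by 2 on the log2 scale, the fit recovered 87.5% of them for LIF withdrawal in Nanog cells (15624 genes), 94.5% in Nanog/Otx2 cells (15609 genes) and 61% for Dox in 44iN cells (14376 genes). Of the simulated calls, 3.85%, 3.57% and 2.4% were false, and 6.9% for the long-term comparison. The simulated libraries were independent of each other and smaller changes were not simulated, so recovery of smaller changes is not known.

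Alternatives were DESeq2 1.42.0, its size factors in edgeR, no filter, edgeR's filterByExpr, each library left out, and a replicate block. A GC correction and a block on the numbers in the column names were added after seeing the data. In Nanog/Otx2 cells the block, called the replicate number or replicate block above, is the clone and number of the title together, so it takes up the clone too. Libraries that shared both deviated together (21 pairs, mean r across genes 0.299, lowest 0.131, against a mean of −0.100 for the 63 other pairs). Those other pairs join libraries within a clone and between clones, so number and clone are not separated. In Nanog cells the block is the clone, which is the same cell line in each condition (22 pairs, mean r 0.148, lowest −0.058). At depths of 6107512 to 92244655 counts, counting error is largest for the genes with few counts, among them Fgf2, Fgf8, Fgf5 with LIF, Fgfr3, Fgfr4, Fos and Junb, and 3 counts per library served as a floor.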

Additional observations from a re-analysis of the deposited data

Results flagged for a closer look

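Among 109 groups of 4 libraries looked at, 3 held a library far from the rest, and chance alone flags about 1 in 20 such groups. Fgf2 in Nanog/Otx2 cells with LIF and Dox had 31.3 normalised counts in C1ON3-1 against 12.7, 14.0 and 15.1 in the others, a gap of 0.874 of the range. Fgfr3 in the same group had 68.3 in C2ON3-1 against 90.5, 90.9 and 91.6, a gap of 0.951. Hras1 in Nanog/Otx2 cells with Dox and without LIF had 1467 in C2ON3-1 against 1820, 1835 and 1882, a gap of 0.85.

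The response to Dox differed between cells without and with LIF, by a test of the interaction in edgeR, for Etv5 in Nanog cells (log2 difference 0.861) and for 7 genes in Nanog/Otx2 cells. These were Fgf1 (1.78), Fgf4 (1.12), Fgf17 (2.80), Fgfr1 (−0.64), Spred2 (0.355), Dusp4 (−1.40) and Etv5 (0.714).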

How the results depend on the processing

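Of 2664 values of the 129 called fold changes under the alternatives, 2496 stayed on their side of the threshold, 168 missed it and 0 changed direction, and 147 of the 168 came from leaving out 1 library. DESeq2 size factors in edgeR lost 0 of the 129 calls. The number of the 37 genes called went from 4 to 7 with the GC correction for Dox without LIF in Nanog cells. For Dox with LIF in Nanog cells it went from 0 to 3 with DESeq2 and 1 with the replicate block, and for their interaction from 1 to 3 with DESeq2 and 0 with the column-number block. In Nanog/Otx2 cells it went from 8 to 17 with the replicate block and 18 with the column-number block for Dox without LIF, and from 3 to 6 with DESeq2 or the GC correction, 12 with the replicate block and 13 with the column-number block for Dox with LIF. In 44iN cells it went from 0 to 1 without a filter and to 8 with either block. Libraries that shared a number there deviated together (2 pairs, r 0.492 against −0.492). In long-term cells the number called went from 7 to 11 with the GC correction. In the joint fit it went from 0 to 2 with DESeq2, 1 without a filter or with the GC correction and 7 with the column-number block. In the SunTag cells the block from the titles changed no other call than those given beside the results, and in 44iN cells it added Fgf2, Fgf17, Fgfr2, Spry4, Dusp1, Etv1, Egr1 and Shc1. The column-number block in Nanog cells also lost Fgfr4 and Mapk3 for LIF withdrawal without Dox (adjusted p = 0.142 and 0.073) and the Etv5 interaction (adjusted p = 0.103). For 2 comparisons alone, no paired analysis was possible because the long-term and Tg2a cells share no pairing, and because the direct comparison of guides could not be fitted with the block. Without a filter, the calls of Grb2 for LIF withdrawal with Dox in Nanog cells, Spred1 for Dox with LIF and the Spred2 interaction in Nanog/Otx2 cells were lost (adjusted p = 0.0688, 0.0564 and 0.133), as was Egr1 in long-term cells with filterByExpr (adjusted p = 0.0529).

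With 1 library left out, the count ranged from 20 to 26 (Nanog) and 20 to 27 (Nanog/Otx2) for LIF withdrawal without Dox, 12 to 19 and 23 to 27 with Dox, 0 to 6 and 6 to 9 for Dox without LIF, 0 to 0 and 1 to 6 for Dox with LIF, and 0 to 2 and 6 to 8 for the interaction. It ranged from 0 to 14 in 44iN cells, 0 to 7 in long-term cells, 8 to 13 for the direct comparison of guides and 0 to 0 for the difference in Dox response and the joint fit.

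Over all genes, calls went from 803 to 1509 with DESeq2 and 1375 with the block for Dox without LIF in Nanog cells, from 88 to 587, 151 (no filter), 260 (GC), 293 (block) and 1 (column-number block) with LIF, and from 302 to 877, 455 (GC) and 709 (block) for the interaction. In Nanog/Otx2 cells the replicate and column-number blocks took 2702 to 5215 and 5398, 3577 to 6401 and 6519, and 1514 to 3407 and 3331. The 44iN count of 0 became 141 (DESeq2), 434 (no filter), 31 (GC) and 1912 (blocks), the long-term 1286 became 2294 (DESeq2) and 3395 (GC), and the direct comparison's 6642 became 4012 (GC). The difference in Dox response went from 5 to 41 (DESeq2), 10 and 13 (blocks), and the joint fit from 48 to 410 (DESeq2), 615 (no filter), 172 (GC), 153 and 1929 (blocks). The cause of these shifts was not tested. Few counts limit Fgf2, Fgf5 with LIF, Fgf8, Fgfr3, Fgfr4, Fos and Junb.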

Other observations

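Immediate early genes outside the 37 moved in both directions after LIF withdrawal without Dox. Of 19 listed, 7 of 18 tested rose and 3 fell in Nanog cells, and 9 of 17 rose and 3 fell in Nanog/Otx2 cells, where 41.5% and 49.8% of all genes were called. Those that rose in both included Jun, an AP-1 subunit (1.66 and 1.98 on the log2 scale), Egr2, a relative of Egr1 (2.04 and 3.03), Ier5 (2.97 and 3.09) and Ctgf, a secreted matrix protein (2.75 and 2.05). Phlda1 (−1.44 and −1.51) and the nuclear receptor Nr4a1 (−0.87 and −1.03) fell in both. With Dox and without LIF, Ctgf fell in both kinds of cells (−1.45 and −1.17), Ier5 fell in Nanog cells (−1.64, adjusted p = 0.0304) and had −0.66 in Nanog/Otx2 cells (adjusted p = 0.198), and Phlda1 rose in Nanog/Otx2 cells (2.08, adjusted p = 8.99e-05) and had 0.78 in Nanog cells (adjusted p = 0.219).

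In SunTag cells, mesendoderm, trophoblast, fibroblast and neural markers were low next to the 4 general ES cell markers. With neither LIF nor Dox, however, the neural sums overlapped those of the naive markers. They were 1811 to 4224 against 2099 to 3419 in Nanog cells and 1718 to 4627 against 2757 to 3754 in Nanog/Otx2 cells. Over the SunTag libraries, 6 mesendoderm markers summed to between 88.6 and 690 normalised counts, 6 trophoblast markers to between 102 and 802 and 6 fibroblast markers to between 142 and 806. The 5 neural markers found summed to between 1208 and 4627, and changed in both directions after LIF withdrawal without Dox. Nes rose (3.66 and 2.63, adjusted p = 2.76e-05 and 0.000298), Tubb3 fell (−1.83 and −1.58, adjusted p = 0.00167 and 1.3e-07), and Zic1 rose in Nanog/Otx2 cells (2.40, adjusted p = 0.000723) and had 2.45 in Nanog cells (adjusted p = 0.0516). The part of these markers in the values of the 37 genes was not tested. The 4 general ES cell markers summed to between 33866 and 69694.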
